A study of Mus musculus with 12 samples.

Results

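The endoplasmic reticulum (ER) chaperones and the genes of the unfolded protein response were followed through 12 RNA-seq libraries of mouse cortex. The 35 genes were listed by symbol and make up 35 of the 24062 gene rows of the raw count table. They were chosen from pathway knowledge with count values of these same libraries already in view, so their differences between groups are given here as a description and support nothing on their own. All 35 had enough counts to be tested. By role, 15 are chaperones and folding enzymes, 8 belong to ER-associated degradation, 9 are sensors, transcription factors and stress effectors, and 3 are parts of the translocation machinery.

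The study asked how tau pathology and a lower dose of the RNA-binding protein TIA1 alter the cortical transcriptome. Each of 4 groups held 3 libraries from mice aged 9 months. The WT group carried no tau transgene and intact Tia1. The Tia1+/- group carried no tau transgene and had 1 disrupted allele of Tia1, made by a frameshift. The PS19 group carried the human P301S tau transgene (1N4R isoform, driven by the Prnp promoter, which is active widely in the brain) with intact Tia1. The P301S Tia1+/- group carried that transgene together with 1 disrupted Tia1 allele. The tau line was kept on a B6 and C3 mixed background and crossed to a Tia1 line backcrossed to C57BL/6J, and mice already at end stage were left out by the study. Nothing in the labels says more about how the mice of a group relate to each other, so p-values measure the spread between these libraries.

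Several properties of the libraries touch every result below. For the samples titled Tia1+/- and P301S Tia1+/-, the genotype field gives the genotype of the other group. Titles were followed here, and under the genotype entries those 2 groups would change places and their comparison its sign. Comparisons of either group with WT or PS19, and the interaction of tau with Tia1 dose, would change as well. Xist had at most 13 counts in any WT or PS19 library and at least 3304 in any library of both Tia1+/- groups, while 4 Y-linked genes had at least 472 counts in WT and PS19 and at most 3 in the others. Tia1 genotype and this sex-linked pattern therefore cannot be told apart, although the study's methods name male mice. The study reported the pattern as regulation of sexually dimorphic genes by TIA1. By PCR in separate, younger Tia1+/- mice, it reported the same directions in males and higher Xist in females. Tia1 itself stood at 82.0 ± 10.3 CPM (counts scaled to the size of the library, mean ± SD, n = 3) in WT, 73.5 ± 3.87 in PS19, 68.0 ± 10.3 in Tia1+/- and 74.7 ± 2.76 in P301S Tia1+/-, so the groups differed by about the spread between libraries. Prnp, which shares its promoter with the transgene, stood at 2018 to 2158 CPM in PS19 and at 1404 to 1535 in P301S Tia1+/-, against 996 to 1922 in Tia1+/- and 1334 to 1879 in WT. Mapt, the mouse tau gene, stood at 438.9 to 461.8 CPM in PS19 and at 336 to 357.1 in P301S Tia1+/-, against 344.4 to 501.7 in Tia1+/- and 255.7 to 413.3 in WT. In P301S Tia1+/-, a tau group by title, both genes thus lay within the WT range. Whether titles or genotype entries are right was not tested. The 8 cortical neuron markers summed to between 2340 and 5310 CPM in a library, so markers of the labelled tissue were present throughout. Their sum was lowest in Tia1+/- replicate 3, and was 2855 CPM in WT replicate 1 against 4717 and 5310 in the other WT libraries. WT replicate 1 also held the highest sum of the 5 astrocyte markers (1755 CPM, against 1045 and 1053 in the other WT libraries). Against WT, the median log2 fold change of the 8 neuron markers was 0.26 in PS19, 0.06 in Tia1+/- and -0.39 in P301S Tia1+/- (7 of 8 lower), and against PS19 it was -0.59 in P301S Tia1+/- (8 of 8 lower). All 5 oligodendrocyte markers were above WT in each group, with sums of 1598 to 2426 CPM in WT, 2049 to 3570 in PS19, 2836 to 3761 in Tia1+/- and 2147 to 2403 in P301S Tia1+/-. All 5 microglia markers were likewise above WT, with sums of 187 to 214 CPM in WT and 193 to 361 CPM in the others. None of these lists had a gene called, and their part in the members' levels was not tested. The 9 olfactory bulb genes summed to 1408 CPM in WT replicate 1 and to 898 to 1046 CPM in P301S Tia1+/-, against 16.02 to 207 CPM in the other 8 libraries. The 6 striatal genes summed to 1159 CPM in Tia1+/- replicate 3 and to 72.6 to 193 CPM elsewhere. In bulk tissue, fewer cells of a type and less RNA per cell cannot be told apart.

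Proteins that enter the ER are folded there with the help of chaperones and disulfide isomerases. When unfolded proteins build up, 3 membrane sensors respond. IRE1 (gene Ern1) splices the mRNA of Xbp1 into the form that encodes an active transcription factor, ATF6 is cut to release another, and PERK (gene Eif2ak3) phosphorylates eIF2alpha, which lowers translation in general while raising that of ATF4. ATF6 and XBP1 raise chaperone and degradation genes through the ER stress response element, and ATF4 raises Ddit3 (encoding CHOP), Atf3, Trib3 and Ppp1r15a. Phosphorylated PERK and other signs of this response have long been described in neurons with tau pathology.

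Promoter sequences are shown because the response acts through them. RefSeq windows (GRCm38.p6, 250 bases before to 50 after the annotated start) were given for 30 of the 35 members. Atf6, Derl1, Hyou1, Manf and Sec61a1 had no entry. The ER stress response element, searched on both strands as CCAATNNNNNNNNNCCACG, was present in the windows of 9 of the 30 members and in 37 of 27025 genes with a window (0.137%). Its second form, ATTGGNCCACG, was present in 2 of the 30 members and 12 of all genes (0.0444%). The 2 forms share the letters CCACG, and ATTGG is CCAAT read on the other strand. The sites are printed 5′ to 3′ in the direction that reads as the element does, with the fixed letters in capitals and the free bases in lower case.
Hspa5 (chr2:34772025-34772043): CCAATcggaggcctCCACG
Hsp90b1, distal (chr10:86705638-86705656): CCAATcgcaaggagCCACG
Hsp90b1, proximal (chr10:86705533-86705551): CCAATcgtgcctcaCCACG
Calr (chr8:84847075-84847093): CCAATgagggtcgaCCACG
Canx (chr11:50325800-50325818): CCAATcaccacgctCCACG
Creld2 (chr15:88819520-88819538): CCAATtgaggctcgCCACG
Dnajc3 (chr14:118937827-118937845): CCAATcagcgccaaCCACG
Pdia6 (chr12:17266491-17266509): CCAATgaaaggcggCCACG
Derl3 (chr10:75893242-75893260): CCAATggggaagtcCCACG
Syvn1 (chr19:6046532-6046550): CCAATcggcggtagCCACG
Dnajb11, second form (chr16:22857852-22857862): ATTGGcCCACG
Herpud1, second form (chr8:94386377-94386387): ATTGGgCCACG

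Of the carriers of the first form, 7 are among the 13 chaperones with a window and 2 among the 7 degradation genes, with 0 among the 8 sensors and stress effectors and 0 among the 2 translocation genes. The window of Hspa5 on the + strand (chr2:34771840-34772139) is printed whole because Hspa5 is the classic carrier of the element, which is set in capitals.
Hspa5 promoter: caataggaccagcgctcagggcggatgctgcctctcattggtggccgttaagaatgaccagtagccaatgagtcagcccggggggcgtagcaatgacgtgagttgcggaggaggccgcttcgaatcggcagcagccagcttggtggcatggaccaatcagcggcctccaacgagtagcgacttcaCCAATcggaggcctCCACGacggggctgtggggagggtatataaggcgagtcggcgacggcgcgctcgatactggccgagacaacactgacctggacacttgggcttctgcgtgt
The TGACGTGG element of XBP1 and ATF6, whose last letters are CCACG on the other strand, was present in 0 members and in 193 of all genes (0.714%). TGATGNAA, the element of ATF4 with CHOP, was present in Atf3, Herpud1 and Trib3 and in 1219 of all genes (4.51%). A match of letters is a description and shows no binding.

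The members differed widely in abundance. Per kb of exon, and averaged over all libraries, Canx stood highest at 153 CPM per kb, followed by Hsp90b1 at 135, Calr at 129 and Hspa5 at 112. In WT alone Hspa5 led, at 175 CPM per kb. Atf4, the highest of the transcription factors, stood at 79.9 CPM per kb and Xbp1 at 38.9. Trib3, Derl3 and Ern1 were the lowest, at 0.363, 0.732 and 1.10 CPM per kb.

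The chaperones and folding enzymes were higher in WT than in the 3 other groups, which lay close together. For 16 of the 35 members, all 9 libraries of the other groups lay below all 3 WT libraries, an arrangement seen in 3.34% of the 15440 genes tested. They comprise 12 of the 15 chaperones and folding enzymes (Hspa5, Hsp90b1, Pdia3, Pdia4, Pdia6, Calr, Dnajb9, Dnajb11, Dnajc3, Sdf2l1, Manf and Creld2), 2 of the 8 degradation genes (Herpud1 and Derl2), 2 of the 9 sensors and effectors (Xbp1 and Ddit3) and 0 of the 3 translocation genes. The opposite arrangement, all 9 libraries above WT, was seen for 0 members. Of the 15 members of this set with a promoter window, 6 carried the first form of the element and 2 the second, and 3 of the other members carried the first form. WT replicate 1 was the highest of all 12 libraries for 26 members, including all 15 chaperones and folding enzymes. Relative to the WT mean, the median log2 level of those 15 was 0.24 in WT replicate 1, -0.07 in replicate 2 and -0.14 in replicate 3. The same median lay between -0.39 and -0.34 in PS19, between -0.54 and -0.49 in Tia1+/- and between -0.58 and -0.47 in P301S Tia1+/-.

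**Figure D1:**
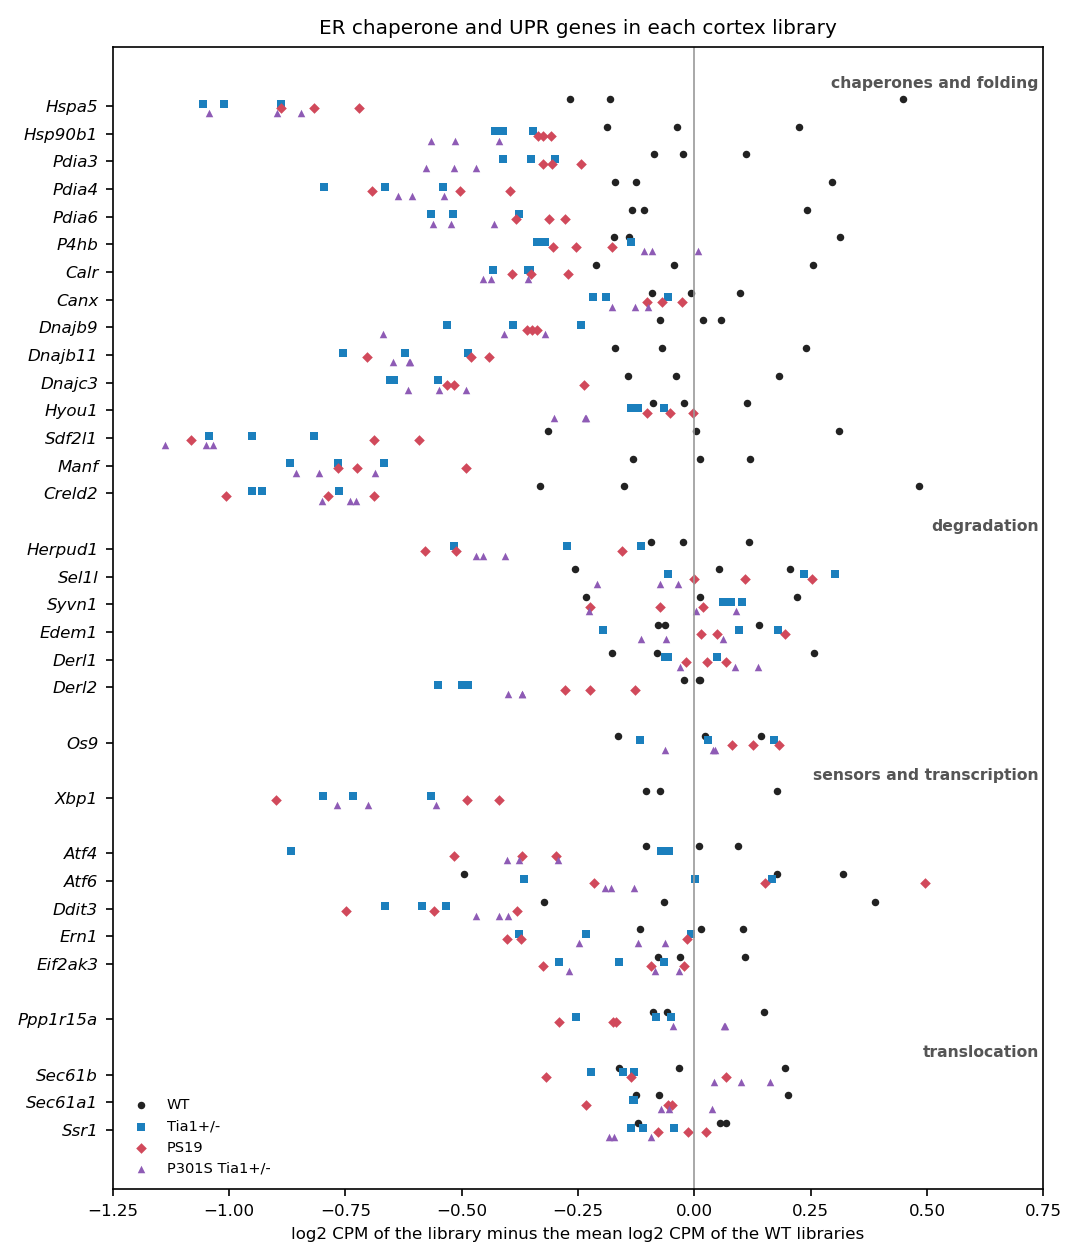
Log2 CPM of each member in each of the 12 libraries, minus the mean log2 CPM of the 3 WT libraries (x axis), with 1 row for each member by role and a marker for each group. For 12 of the 15 chaperones and folding enzymes every blue, red and purple marker lies left of every black one, whereas most degradation and translocation genes are mixed. Atf3, Trib3 and Derl3, whose spread would need another scale, are left off.

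Hspa5 (chr2:34771970-34777547 on GRCm38, + strand) encodes BiP, the main HSP70 chaperone of the ER lumen and a restraint on the 3 sensors. Its level was 984, 635 and 599 CPM in WT, 409, 389 and 437 in PS19, 347, 358 and 389 in Tia1+/-, and 387, 401 and 349.6 in P301S Tia1+/-. The 3 WT libraries were the highest and did not overlap any other group, and replicate 1 stood well above the other two. The log2 fold change against WT was -0.84 ± 0.16 (adjusted p = 0.133) for PS19, -1.02 ± 0.16 (adjusted p = 0.0375) for Tia1+/- and -0.96 ± 0.16 (adjusted p = 0.024) for P301S Tia1+/-, each ± SE, by edgeR's quasi-likelihood test with Benjamini-Hochberg adjustment over all genes tested. Each SE was derived as the absolute log2 fold change divided by the square root of that test's F statistic. These 3 comparisons share the WT libraries. Without WT replicate 1 the same values were -0.57 (adjusted p = 0.129), -0.75 (adjusted p = 0.0120) and -0.69 (adjusted p = 0.00618).

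Manf (chr9:106838312-106891979, - strand), a secreted and ER-resident cofactor of BiP with neurotrophic action, had the smallest p of all members in each comparison with WT. It stood at 81.8, 76 and 68.7 CPM in WT, 45.5, 44.2 and 53.5 in PS19, 44.2, 47.4 and 41.2 in Tia1+/-, and 43, 46.7 and 41.5 in P301S Tia1+/-. Groups did not overlap WT and the WT libraries were close to each other. The log2 fold change was -0.66 ± 0.10 (adjusted p = 0.133) in PS19, -0.77 ± 0.10 (adjusted p = 0.0156) in Tia1+/- and -0.79 ± 0.10 (adjusted p = 0.0112) in P301S Tia1+/-. Creld2, a small disulfide isomerase induced by ER stress, was measured at 36.4, 20.6 and 23.4 CPM in WT, 15, 12.9 and 16.1 in PS19, 13.6, 13.4 and 15.3 in Tia1+/-, and 15.5, 15.7 and 14.9 in P301S Tia1+/-. All non-WT libraries lay below WT, and WT replicate 1 lay well above the other WT libraries. Its log2 fold change was -0.87 ± 0.18 (adjusted p = 0.157), -0.93 ± 0.19 (adjusted p = 0.0517) and -0.81 ± 0.18 (adjusted p = 0.0559) in the same order, so it missed the threshold in all 3. Sdf2l1, a partner of BiP and ERdj3 that slows aggregation, stood at 24.6, 15.9 and 19.9 CPM in WT, 13.1, 9.29 and 12.2 in PS19, 11.2, 10.2 and 9.54 in Tia1+/-, and 9.5, 9.6 and 8.92 in P301S Tia1+/-. The lowest WT library stood above the highest of the others (15.9 against 13.1 CPM). Sdf2l1 showed log2 fold changes of -0.80 ± 0.17 (adjusted p = 0.157), -0.97 ± 0.17 (adjusted p = 0.0442) and -1.11 ± 0.17 (adjusted p = 0.0193).

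The J-domain proteins hand substrates to BiP. Dnajb11 (ERdj3) stood at 109.8, 88.6 and 82.6 CPM in WT, 66.6, 57 and 68.4 in PS19, 60.3, 66.3 and 55 in Tia1+/-, and 60.8, 59.3 and 60.7 in P301S Tia1+/-. WT was apart from the other groups, which overlapped each other. The log2 fold change was -0.55 ± 0.12 (adjusted p = 0.157) in PS19, -0.63 ± 0.12 (adjusted p = 0.0447) in Tia1+/- and -0.64 ± 0.12 (adjusted p = 0.0331) in P301S Tia1+/-. Dnajb9 (ERdj4), a repressor of IRE1 and a target of XBP1, stood at 59.2, 57.7 and 54.1 CPM in WT, 44.7, 44.4 and 45 in PS19, 48.1, 39.4 and 43.4 in Tia1+/-, and 45.6, 42.8 and 35.8 in P301S Tia1+/-. WT libraries were again the 3 highest, with log2 fold changes of -0.35 ± 0.10 (adjusted p = 0.18), -0.39 ± 0.10 (adjusted p = 0.0906) and -0.46 ± 0.10 (adjusted p = 0.053). Dnajc3 (p58IPK), an inhibitor of PERK, ranged from 131 to 163 CPM in WT and from 91.4 to 122 CPM in the other libraries. It fell in Tia1+/- (log2 -0.62 ± 0.10, adjusted p = 0.0413) and in P301S Tia1+/- (log2 -0.56 ± 0.10, adjusted p = 0.0336), while PS19 gave -0.43 ± 0.10 (adjusted p = 0.159).

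Among the disulfide isomerases, Pdia4 (ERp72) stood at 133, 99.1 and 96 CPM in WT, 76.2, 66.8 and 82.1 in PS19, 62.2, 68.1 and 74.2 in Tia1+/-, and 74.4, 70.9 and 69.4 in P301S Tia1+/-. No other library reached the lowest WT value, and the 3 other groups overlapped. It fell in Tia1+/- (log2 -0.68 ± 0.13, adjusted p = 0.0447) and in P301S Tia1+/- (log2 -0.61 ± 0.13, adjusted p = 0.0491) and gave -0.54 ± 0.13 (adjusted p = 0.159) in PS19. Pdia6 (P5), which also limits IRE1 signalling, stood at 195, 153 and 151 CPM in WT, 136, 127 and 133 in PS19, 115, 127 and 112 in Tia1+/-, and 122, 115 and 112 in P301S Tia1+/-. WT lay above all others, with log2 fold changes of -0.33 ± 0.10 (adjusted p = 0.192) in PS19, -0.50 ± 0.10 (adjusted p = 0.0574) in Tia1+/- and -0.52 ± 0.10 (adjusted p = 0.0411) in P301S Tia1+/-. Pdia3 (ERp57), the isomerase that works with calnexin and calreticulin on glycoproteins, stood at 250.2, 228 and 218 CPM in WT, 196, 185 and 187 in PS19, 188, 182 and 174 in Tia1+/-, and 167, 162 and 155 in P301S Tia1+/-. All other groups lay below WT, and every P301S Tia1+/- library lay below every library of the other 3 groups. Its log2 fold change was -0.29 ± 0.07 (adjusted p = 0.159) in PS19, -0.36 ± 0.07 (adjusted p = 0.0574) in Tia1+/- and -0.52 ± 0.07 (adjusted p = 0.0145) in P301S Tia1+/-. P4hb (PDI itself) ranged from 134 to 188 CPM in WT, 122 to 134 in PS19, 119.5 to 137 in Tia1+/- and 140.2 to 152 in P301S Tia1+/-, and differed from most chaperones in that the last group lay inside the WT range.

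Hsp90b1 (GRP94), the HSP90 of the ER, stood at 778, 648 and 584 CPM in WT, 537, 527 and 531 in PS19, 494, 500.1 and 523 in Tia1+/-, and 497, 466 and 449 in P301S Tia1+/-. The lowest WT library lay above all others, by a wider margin over P301S Tia1+/- than over PS19. It fell in P301S Tia1+/- (log2 -0.51 ± 0.10, adjusted p = 0.0385), with -0.41 ± 0.10 (adjusted p = 0.0807) in Tia1+/- and -0.33 ± 0.10 (adjusted p = 0.182) in PS19. Calr, encoding the lectin chaperone and calcium buffer calreticulin, stood at 533, 433 and 385 CPM in WT, 369.6, 340.5 and 350.2 in PS19, 331, 348 and 349.5 in Tia1+/-, and 326, 349 and 329.8 in P301S Tia1+/-. All others lay below WT, and none of its log2 fold changes passed, at -0.35 ± 0.11 (adjusted p = 0.186) in PS19, -0.39 ± 0.11 (adjusted p = 0.0947) in Tia1+/- and -0.43 ± 0.11 (adjusted p = 0.0682) in P301S Tia1+/-. Canx, encoding the membrane-bound lectin calnexin, stood at 818, 760.2 and 717 CPM in WT, 728, 750.0 and 712 in PS19, 657, 669 and 734 in Tia1+/-, and 713, 699 and 676 in P301S Tia1+/-. Tia1+/- and PS19 overlapped WT, and P301S Tia1+/- lay just below it (713 against 717 CPM). The Canx promoter also carries the element. Hyou1 (ORP150), a nucleotide exchange factor for BiP, stood at 168, 146 and 153 CPM in WT, 145, 149.7 and 155 in PS19, 148, 141 and 143 in Tia1+/-, and 126, 132 and 132 in P301S Tia1+/-. All 3 P301S Tia1+/- libraries lay below every WT library, while PS19 and Tia1+/- each overlapped WT, and the log2 fold change of P301S Tia1+/- was -0.26 ± 0.07 (adjusted p = 0.0914).

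**Figure D2:**
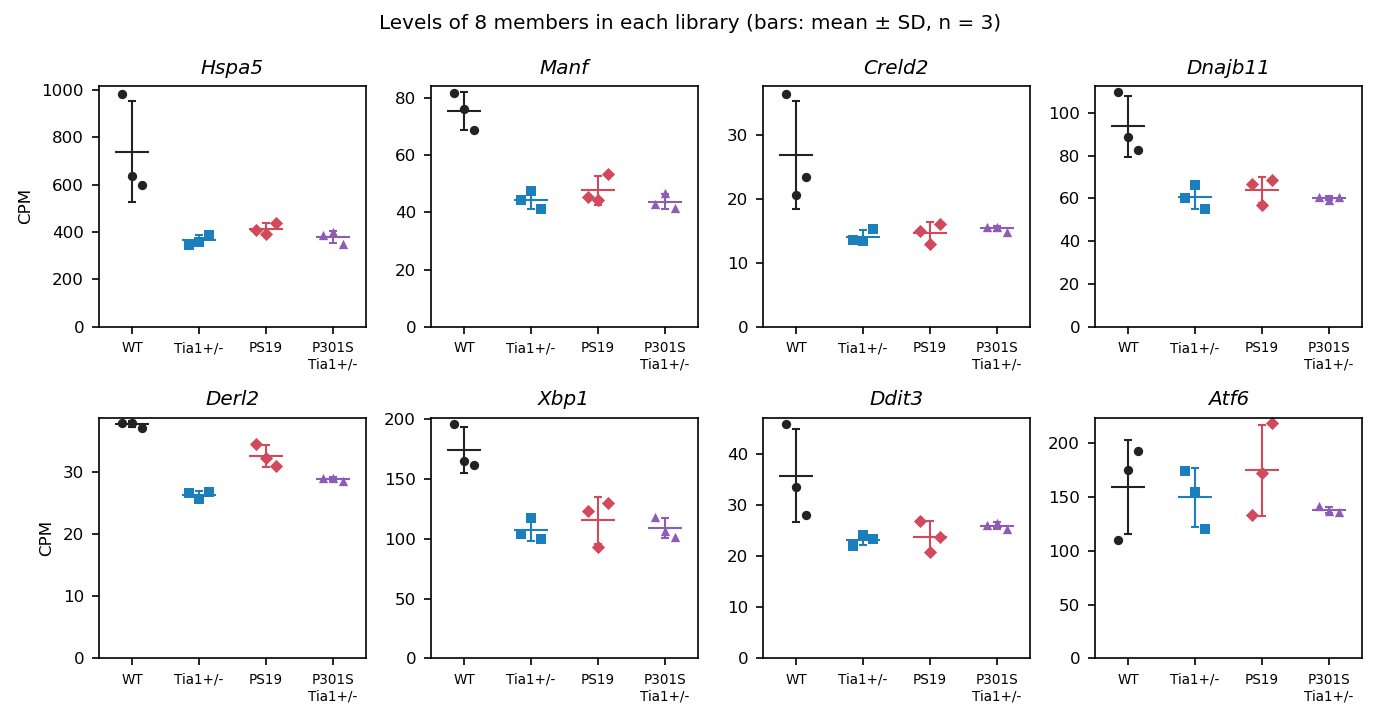
CPM (y axes, each from 0) of 8 members in the 12 libraries, 1 panel for each gene, with points for libraries and bars for mean ± SD (n = 3). Hspa5, Manf, Creld2, Dnajb11, Derl2, Xbp1 and Ddit3 are higher in all 3 WT libraries than in any other, while the Atf6 groups overlap.

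The genes of ER-associated degradation behaved less uniformly. Herpud1, which organises the HRD1 ubiquitin ligase complex and carries both the second form of the element and the ATF4 letters, stood at 85.1, 89.2 and 98.5 CPM in WT, 63.6, 60.7 and 81.4 in PS19, 75, 83.8 and 63.4 in Tia1+/-, and 66.2, 65.5 and 68.5 in P301S Tia1+/-. WT was above all others by a narrow gap (85.1 against 83.8 CPM), and the log2 fold change was -0.41 ± 0.13 (adjusted p = 0.192) in PS19, -0.30 ± 0.13 (adjusted p = 0.237) in Tia1+/- and -0.45 ± 0.13 (adjusted p = 0.0972) in P301S Tia1+/-. Derl2 (chr11:71007164-71019841, - strand), a rhomboid-like channel component of that complex, stood at 37.9, 37.9 and 37 CPM in WT, 34.4, 32.2 and 31 in PS19, 26.6, 25.6 and 26.8 in Tia1+/-, and 29.1, 29 and 28.4 in P301S Tia1+/-. The groups did not overlap at all, and ran from WT through PS19 and P301S Tia1+/- down to Tia1+/-. Derl2 fell in Tia1+/- (log2 -0.51 ± 0.07, adjusted p = 0.0214) and in P301S Tia1+/- (log2 -0.38 ± 0.07, adjusted p = 0.0331), with -0.21 ± 0.07 (adjusted p = 0.212) in PS19.

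The rest of the degradation group overlapped between WT and each tau or Tia1+/- group. Sel1l, the adaptor of HRD1, stood at 181, 224 and 249 CPM in WT, 216, 233 and 257 in PS19, 266, 254 and 208 in Tia1+/-, and 187, 211 and 206 in P301S Tia1+/-. WT replicate 1 was its lowest library. Syvn1, encoding HRD1 itself, stood at 18.6, 16.1 and 13.5 CPM in WT, 13.6, 15.1 and 16.1 in PS19, 17.1, 16.8 and 16.6 in Tia1+/-, and 13.6, 15.9 and 16.9 in P301S Tia1+/-, and its lowest and highest values were both in WT. Edem1, a lectin that extracts misfolded glycoproteins, stood at 26.9, 31 and 26.6 CPM in WT, 32.2, 29.1 and 28.4 in PS19, 31.8, 30 and 24.5 in Tia1+/-, and 26.9, 25.9 and 29.3 in P301S Tia1+/-, with no group apart. Derl3, the family member confined mainly to secretory tissues, was near the limit of detection at 2.8, 1.61 and 1.06 CPM in WT, 1.25, 0.56 and 1.26 in PS19, 0.621, 1.71 and 2.06 in Tia1+/-, and 1.82, 1.08 and 1.67 in P301S Tia1+/-. Derl1 ranged from 70.8 to 95.8 CPM and Os9, another lectin of the pathway, from 109 to 139 CPM over all libraries, in each case with WT holding the lowest value.

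Of the transcription factors, Xbp1 (chr11:5520659-5525893, + strand) followed the chaperones. Its level, summed over spliced and unspliced forms, was 196, 165 and 161 CPM in WT, 124, 92.9 and 129.5 in PS19, 104, 117 and 99.7 in Tia1+/-, and 118, 107 and 102 in P301S Tia1+/-. All WT libraries lay above the rest, and PS19 was the most spread of the other groups. The log2 fold change was -0.59 ± 0.13 (adjusted p = 0.157) in PS19, -0.70 ± 0.13 (adjusted p = 0.0447) in Tia1+/- and -0.68 ± 0.13 (adjusted p = 0.0374) in P301S Tia1+/-. The count table does not separate the spliced form of Xbp1. Ddit3, encoding the stress factor CHOP, stood at 45.8, 33.4 and 27.9 CPM in WT, 26.8, 20.7 and 23.7 in PS19, 22, 24.1 and 23.3 in Tia1+/-, and 26.1, 26.4 and 25.2 in P301S Tia1+/-. WT was above all others, though WT replicate 3 lay only just above PS19 replicate 1 (27.9 against 26.8 CPM). Its log2 fold changes of -0.59 ± 0.16 (adjusted p = 0.17), -0.63 ± 0.16 (adjusted p = 0.0843) and -0.46 ± 0.16 (adjusted p = 0.159) did not pass.

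Atf4, translated when eIF2alpha is phosphorylated, stood at 239, 226 and 208 CPM in WT, 182, 157 and 173 in PS19, 213, 216 and 123 in Tia1+/-, and 183, 169 and 172 in P301S Tia1+/-. Both PS19 and P301S Tia1+/- lay below WT, whereas in Tia1+/- only replicate 3, the library with high striatal genes, stood apart from WT. The PS19 log2 fold change was -0.39 ± 0.18 (adjusted p = 0.297). Atf6 stood at 109.7, 175 and 193 CPM in WT, 133, 172 and 218 in PS19, 174, 155 and 120.2 in Tia1+/-, and 141, 137 and 136 in P301S Tia1+/-, with WT replicate 1 the lowest and PS19 replicate 3 the highest library and no group apart. Ern1 (IRE1) stood at 10.1, 10.7 and 9.2 CPM in WT, 7.69, 7.53 and 9.88 in PS19, 9.94, 8.47 and 7.67 in Tia1+/-, and 9.56, 9.18 and 8.39 in P301S Tia1+/-. Eif2ak3 (PERK) stood at 49.1, 44.6 and 43.1 CPM in WT, 42.7, 36.3 and 44.9 in PS19, 40.7, 43.5 and 37.2 in Tia1+/-, and 37.7, 44.5 and 43 in P301S Tia1+/-. Both kinase genes overlapped between all groups, and the adjusted p of Ern1, Eif2ak3 and Atf6 exceeded the threshold in every comparison.

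Ppp1r15a (GADD34), the phosphatase subunit that reverses eIF2alpha phosphorylation, stood at 17.5, 15.1 and 14.8 CPM in WT, 14, 12.9 and 14 in PS19, 15.2, 14.9 and 13.2 in Tia1+/-, and 15.3, 16.5 and 16.5 in P301S Tia1+/-. PS19 lay below all WT libraries and below all P301S Tia1+/- libraries, and the latter lay within the WT range. Trib3, a pseudokinase induced by ATF4 and CHOP, was close to the detection limit at 1.44, 0.507 and 0.76 CPM in WT, 0.831, 0.56 and 0.301 in PS19, 0.759, 0.591 and 1.87 in Tia1+/-, and 0.314, 0.48 and 0.833 in P301S Tia1+/-. No group stood apart.

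Atf3, a transcription factor induced by many kinds of injury and stress, had the largest ratio of its highest to its lowest library among the members. Atf3 (chr1:191170296-191218039, - strand) stood at 27.8, 7.28 and 1.75 CPM in WT, 2.08, 3.44 and 1.32 in PS19, 0.552, 1.25 and 1.8 in Tia1+/-, and 19.2, 13.4 and 16.3 in P301S Tia1+/-. High values occurred in WT replicate 1 and in all 3 P301S Tia1+/- libraries, the same libraries whose olfactory bulb genes were high. WT replicate 2, with a bulb sum of 207 CPM, held an intermediate level, while Tia1+/- replicate 3, with a bulb sum of 205 CPM, held 1.80 CPM. The remaining libraries held between 8 and 43 counts each. In the fit, Atf3 gave log2 fold changes of 3.75 ± 0.83 (adjusted p = 0.178) for P301S Tia1+/- against Tia1+/- and 2.86 ± 0.78 (adjusted p = 0.117) for P301S Tia1+/- against PS19. With the mean log2 CPM of the bulb genes as a covariate, the value against PS19 turned to -1.28 (adjusted p = 0.293) and that of PS19 against WT turned from -2.45 to 1.10 (adjusted p = 0.306). The part of the bulb genes in the Atf3 level was otherwise not tested. Hspa5 stood at 349.6 to 401 CPM in the P301S Tia1+/- libraries, beside bulb sums of 898 to 1046 CPM. With the same covariate its log2 fold change against WT was -0.35 (adjusted p = 0.236) in PS19, -0.63 (adjusted p = 0.0230) in Tia1+/- and -1.14 (adjusted p = 0.00085) in P301S Tia1+/-. All 3 P301S Tia1+/- libraries held high bulb sums, and outside that group only WT replicate 1 did. The covariate can therefore hardly be separated from that group, and no conclusion is drawn from its values for Atf3 and Hspa5.

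**Figure D3:**
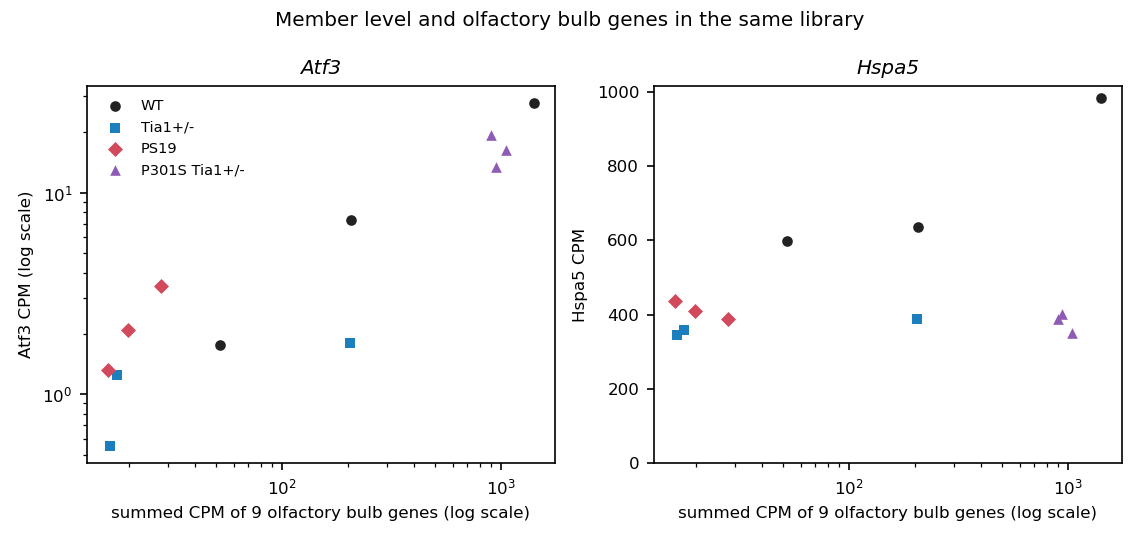
CPM of Atf3 (left, log scale) and Hspa5 (right, linear from 0) against the summed CPM of 9 olfactory bulb genes (x axes, log scale), 1 point for each library. Atf3 is highest where the bulb genes are highest, in WT replicate 1 and the 3 P301S Tia1+/- libraries. Hspa5 in WT stands at 984, 635 and 599 CPM beside bulb sums of 1408, 207 and 51.8 CPM. The part of the bulb genes in these levels was not tested.

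The translocation genes were nearly level. Sec61b, a subunit of the protein-conducting channel, stood at 17.8, 15.1 and 13.8 CPM in WT, 16.3, 14.1 and 12.4 in PS19, 14.2, 13.9 and 13.3 in Tia1+/-, and 16, 16.6 and 17.4 in P301S Tia1+/-, and P301S Tia1+/- lay above Tia1+/- without overlap. Sec61a1, the pore subunit, ranged from 61.8 to 83.6 CPM, with Tia1+/- just below WT (66.4 against 66.7 CPM), and Ssr1, of the translocon-associated complex, from 203 to 242 CPM. Over the 3 genes, the median log2 fold change against WT was -0.12 for PS19, -0.14 for Tia1+/- and -0.04 for P301S Tia1+/-.

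The comparison of PS19 with WT addresses the effect of P301S tau on intact Tia1. All 15 chaperones and folding enzymes had negative log2 fold changes (median -0.35), as did 8 of 9 sensors and effectors (median -0.39), 4 of 8 degradation genes (median -0.04) and 3 of 3 translocation genes. Creld2 stood at 0.547 times WT, Hspa5 at 0.557 times and Sdf2l1 at 0.575 times. In 19 members every PS19 library lay below every WT library, against 11% of all genes tested. The median over all members was -0.33, against -0.0066 over all genes. The edgeR test called (adjusted p below 0.05) 0 members and 0% of all genes, with 18 members and 2516 of the 15440 genes at an unadjusted p below 0.05, and all 18 members lower. DESeq2 fitted to the same 12 libraries called 12 members lower (Atf3, Hsp90b1, Ddit3, Xbp1, Dnajc3, Creld2, Sdf2l1, Dnajb11, Hspa5, Pdia3, Pdia4 and Manf), against 1.87% of all genes. The median without WT replicate 1 was -0.20, and with WT replicate 1 and Tia1+/- replicate 3 both left out it was -0.21, with Hspa5 and Manf called, against 0.476% of all genes.

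By title, Tia1+/- against WT compares the loss of 1 Tia1 allele without tau, together with the sex-linked pattern noted above. Called members were Hspa5, Manf, Sdf2l1, Pdia4, Dnajb11, Dnajc3, Derl2 and Xbp1, all lower, which is 8 of 35 against 0.44% of all genes. They include 6 chaperones and folding enzymes, whose median over all 15 was -0.50. In 17 members the groups did not overlap with Tia1+/- lower, against 10.4% of all genes. The median over members was -0.30, against 0.0057 over all genes. The number called was 3 without WT replicate 1, 0 without WT replicate 2, 15 without WT replicate 3 and 0 without any 1 of the Tia1+/- libraries, against 0.16%, 0.0637% and 3.16% of all genes without WT replicates 1, 2 and 3. Without Tia1+/- replicates 1, 2 and 3 the share of all genes called also fell, to 0.0509%, 0.0574% and 0.115%. On only these 6 libraries, edgeR called 0 members and DESeq2 called 10, against 1.36% of all genes, and DESeq2 on all 12 libraries called 16, against 6.34%.

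P301S Tia1+/- against WT combined, by title, both changes and the sex-linked pattern. Here 11 members were called, all lower (Hspa5, Hsp90b1, Pdia3, Pdia4, Pdia6, Dnajb11, Dnajc3, Sdf2l1, Manf, Derl2 and Xbp1), against 0.842% of all genes. Of them 9 are chaperones and folding enzymes, and the median over that role was -0.52. Sdf2l1 stood at 0.465 times WT, Hspa5 at 0.513 times and Manf at 0.58 times. Without overlap, 19 members were lower, against 10.8% of all genes. The median over members was -0.36, and -0.23 without WT replicate 1. The number called was 15 without WT replicate 1, 1 without WT replicate 2, 12 without WT replicate 3 and 0, 1 and 0 without P301S Tia1+/- replicates 1, 2 and 3. Over all genes, the share called rose from 1.31% to 10.5% without WT replicate 1, and was 0.0573% without WT replicate 2 and 1.48% without WT replicate 3. That share fell to 0.0701%, 0.0894% and 0.0577% without P301S Tia1+/- replicates 1, 2 and 3. On only these 6 libraries, edgeR called 0 members and DESeq2 called 15, against 3.56% of all genes, and DESeq2 on all 12 libraries called 16, against 7.46%. With WT replicate 1 and Tia1+/- replicate 3 both left out, 18 members were called, 17 of them lower and Atf3 higher, against 25.8% of all genes.

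Between P301S Tia1+/- and Tia1+/-, by title the effect of tau on the reduced Tia1 dose and within the same sex-linked pattern, the chaperones lay close together. The median over all members was -0.0069 and that of the chaperones -0.02. Hspa5 averaged 379 ± 26.6 CPM in P301S Tia1+/- and 364 ± 22.1 in Tia1+/- (SD, n = 3), and Manf 43.7 ± 2.69 and 44.2 ± 3.10. The edgeR test called 0 members and 0% of all genes, with Atf3, Pdia3 and 2405 of the 15440 genes in all at an unadjusted p below 0.05 and Atf3 called by DESeq2, which called 2.75% of all genes. Pdia3 gave a log2 fold change of -0.17 ± 0.07 (adjusted p = 0.309) and Sec61b gave 0.27 ± 0.12 (adjusted p = 0.323). Lower without overlap were 2 members (Pdia3 and Hyou1), against 11.1% of all genes, and higher without overlap were 7 (P4hb, Derl2, Atf3, Ddit3, Ppp1r15a, Sec61b and Sec61a1), against 14.9%. With WT replicate 1 and Tia1+/- replicate 3 both left out, 5 members were called (Atf3, P4hb, Sel1l, Atf4 and Pdia3), against 23.4% of all genes, so the members' share lay below that of all genes.

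P301S Tia1+/- against PS19 asks, by title, what the lower Tia1 dose changes in the presence of tau, and again carries the sex-linked pattern. The median over members was -0.08, with 13 of 15 chaperones and folding enzymes negative. Pdia3 gave -0.23 ± 0.07 (adjusted p = 0.152) and Hyou1 -0.20 ± 0.07 (adjusted p = 0.175). The edgeR test called 0 members, against 0.24% of all genes, with 5 members and 2976 of the 15440 genes at an unadjusted p below 0.05, and DESeq2 called Atf3 and Pdia3, against 4.93% of all genes. Lower without overlap were 8 members, against 18.2% of all genes, and higher were 3, against 20.2%, so the members stood near or below the share of all genes in both directions. Fitting only these 6 libraries called Atf3, Pdia3 and Hyou1 while calling 20.1% of all genes.

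The interaction compares the tau effect on Tia1+/-, with groups taken by title, with that on intact Tia1. It was positive for 14 of 15 chaperones and folding enzymes (median log2 0.46), since PS19 lay below WT while P301S Tia1+/- and Tia1+/- lay close together. The smallest p-values were those of Atf3 at 6.19 ± 1.14 (adjusted p = 0.0579), Manf at 0.64 ± 0.14 (adjusted p = 0.0684) and Hspa5 at 0.90 ± 0.23 (adjusted p = 0.0758). The edgeR test called 0 members, against 0.00648% of all genes, with 14 at an unadjusted p below 0.05, all positive, beside 3535 of the 15440 genes in either direction. DESeq2 called 8 members, against 7.38% of all genes. The number called was 2 without WT replicate 1, 4 without WT replicate 3, 1 without Tia1+/- replicate 3 and 6 with WT replicate 1 and Tia1+/- replicate 3 both left out, against 1.55%, 6.59%, 2.6% and 13.5% of all genes. With the bulb genes as a covariate the interaction of Hspa5 turned to -0.15 (adjusted p = 0.815).

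**Figure D4:**
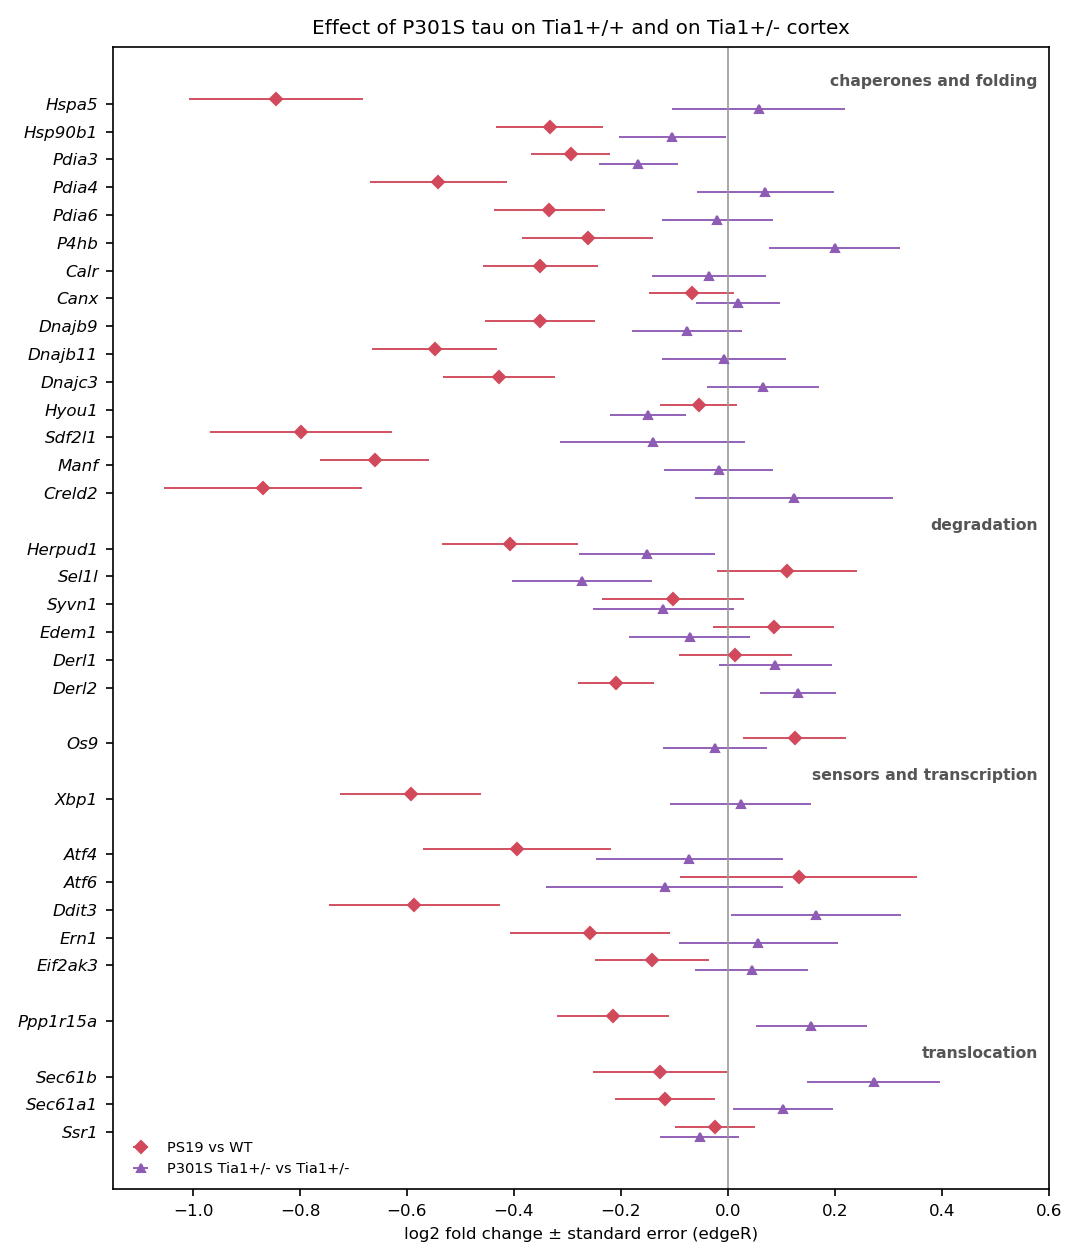
Log2 fold change ± standard error (x axis) of each member for PS19 against WT (red) and for P301S Tia1+/- against Tia1+/- (purple), by role. The red points of the chaperones lie left of 0, with a median of -0.35, and the purple points lie around 0, with a median of -0.02. Atf3, Trib3 and Derl3 are left off.

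A further 105 genes of the pathway, also listed by symbol, put the members in context, and 104 of them were tested. Their median log2 fold change was -0.04 in PS19, -0.03 in Tia1+/- and -0.02 in P301S Tia1+/- against WT. Dnajc1, a ribosome-associated J protein, fell in Tia1+/- (-0.63 ± 0.10, adjusted p = 0.0389) and in P301S Tia1+/- (-0.49 ± 0.10, adjusted p = 0.0469), and Erp44, a retrieval factor for oxidoreductases, fell in Tia1+/- (-0.38 ± 0.07, adjusted p = 0.0446). No other gene of this list was called in any comparison. All 9 non-WT libraries lay below WT for 8 of the 104 (Dnajc1, Erp44, Selk, Uggt1, Ubxn4, Eif2s1, Ppp1r15b and Nck1), against 3.34% of all genes tested. They lay above WT for 3, an arrangement whose share of all genes was not counted. Of the 20 tested targets of ATF4 and CHOP, 0 were called in any comparison, with medians of -0.05, -0.0013 and -0.08 in PS19, Tia1+/- and P301S Tia1+/- against WT.

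The 8 cytosolic heat shock genes summed to 6142 to 7859 CPM in WT, 5455 to 5665 in PS19, 4750 to 5474 in Tia1+/- and 4820 to 5471 in P301S Tia1+/-, with all 8 lower than WT in each comparison. Of these 8, edgeR called 0 in PS19, 3 in Tia1+/- and 3 in P301S Tia1+/-, against 0%, 0.44% and 0.842% of all genes called lower. The 9 immediate early genes, which mark recent neuronal activity, summed to 795 to 1138 CPM in WT and to 284 to 893 CPM in the other libraries, so the groups overlapped. Of these 9 genes, 8 were below WT in PS19, 8 in Tia1+/- and 6 in P301S Tia1+/-. In the same order edgeR called 0, 1 and 0 of them, against 0%, 0.712% and 1.31% of all genes called in either direction. The part of both lists in the chaperone levels was not tested.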

How the data were processed

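Libraries of total RNA from cortex kept the strand of the RNA (TruSeq) and were read from both ends. Per the labels, the authors aligned reads to mm10 with TopHat2 2.0.6 (the study's methods name another TopHat release, with Bowtie) and used featureCounts for the counts of each gene. The gene annotation, strand setting and treatment of reads with several alignments are not given in the sources used here. The deposited values are raw counts, 11978962 to 19146484 per library, for 24062 genes, of which 3287 had no count. Depth sets the precision of low genes such as Trib3, Derl3 and Atf3.

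Counts were scaled by TMM and filtered with filterByExpr (15440 genes kept), and all 12 libraries were fitted with edgeR 4.0.16 (quasi-likelihood test, R 4.3.3), with a mean for each group and Benjamini-Hochberg adjustment over all genes tested at a threshold of 0.05. CPM use the TMM-scaled library sizes. DESeq2 1.42.0 and other settings were alternatives, and the pipeline was tested on simulated data. Gene positions and exon lengths came from GENCODE M21 on GRCm38, the build of mm10, and promoter windows from RefSeq. Protein sequences were not used here. Members, gene lists and named genes were chosen with earlier results of these data known. Every member is accounted for, with values in each library for the genes that define a role and for the 3 smallest p-values of each comparison. P4hb, Dnajc3 and the other members outside that rule are given by their ranges, and other pathway genes are named where they passed the threshold or lay below WT in all 9 libraries. Groups followed the sample titles. No sequencing batch is given.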

Additional observations from a re-analysis of the deposited data

Results flagged for a closer look

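For 4 members the tau effect, with groups taken by title, pointed in opposite directions at the 2 doses of Tia1. Every PS19 library lay below every WT library, while every P301S Tia1+/- library lay above every Tia1+/- library. Under the genotype entries the last 2 groups change places, and these members would be lower with tau at both doses. Of all genes tested, 11% met the first condition and 14.9% the second, and the share meeting both was not counted. Margins were narrow for P4hb (PS19 at most 133.6, WT at least 134.1 CPM) and Ppp1r15a (P301S Tia1+/- at least 15.28, Tia1+/- at most 15.25 CPM). The difference between both effects, as the log2 interaction of the edgeR fit, was 0.46 for P4hb (adjusted p = 0.154), 0.34 for Derl2 (adjusted p = 0.0962), 0.75 for Ddit3 (adjusted p = 0.10) and 0.37 for Ppp1r15a (adjusted p = 0.173). None of these passed the threshold. With the bulb genes as a covariate, the median interaction over all members moved from 0.31 to 3.00e-05.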

How the results depend on the processing

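Followed here were log2 fold changes with an unadjusted p below 0.05 in the main fit. Against WT these covered the members named by the rule above, and elsewhere only the 3 members with the smallest p. Of 804 such values under other settings, 609 kept their direction and side of the threshold, 106 lost and 85 gained significance, and 4 turned their sign. All 4 did so with the olfactory bulb genes as a covariate: Atf3 to 1.10 in PS19 vs WT, to -1.28 in P301S Tia1+/- vs PS19 and to -0.61 in the interaction, and Hspa5 to -0.15 in the interaction. Members outside this rule, such as P4hb, Derl2, Ddit3 and Ppp1r15a in the interaction, were not counted. DESeq2 called 12 members in PS19 vs WT, 1 in P301S Tia1+/- vs Tia1+/-, 16 in Tia1+/- vs WT, 2 in P301S Tia1+/- vs PS19 and 8 in the interaction. Its shares of all genes called in either direction were, in order, 2.77%, 2.75%, 6.34%, 4.93% and 7.38%. With no filter on low counts, 5 members were called in Tia1+/- vs WT and 7 in P301S Tia1+/- vs WT (0.351% and 0.587% of all genes). Fits of only the libraries compared called 1 in P301S Tia1+/- vs Tia1+/-, 3 in P301S Tia1+/- vs PS19 and 0 in Tia1+/- vs WT and P301S Tia1+/- vs WT (in order 2.22%, 20.1%, 0.0408% and 0.0938% of all genes). DESeq2 on only those libraries, chosen after seeing the data, called 2 in PS19 vs WT, 1 in P301S Tia1+/- vs Tia1+/- and 3 in P301S Tia1+/- vs PS19 (in order 0.621%, 7.31% and 18.3% of all genes). The bulb covariate gave 2 in PS19 vs WT and 2 in P301S Tia1+/- vs PS19 (6.46% and 7.91% of all genes), with medians of -0.18 in PS19 vs WT, -0.14 in P301S Tia1+/- vs Tia1+/-, -0.29 in P301S Tia1+/- vs PS19 and 3.00e-05 in the interaction. Leaving out WT replicate 1 and Tia1+/- replicate 3 together, chosen after seeing the data, gave 2 in PS19 vs WT, 5 in P301S Tia1+/- vs Tia1+/-, 6 in P301S Tia1+/- vs PS19, 18 in P301S Tia1+/- vs WT and 6 in the interaction (in order 0.476%, 23.4%, 22.9%, 25.8% and 13.5% of all genes), with medians of -0.21, -0.19 and -0.26 in PS19, Tia1+/- and P301S Tia1+/- vs WT and 0.18 in the interaction. Leaving out 1 library at a time gave 0 to 15 members in Tia1+/- vs WT (0.0509% to 3.16% of all genes), 0 to 15 in P301S Tia1+/- vs WT (0.0573% to 10.5%) and 0 to 4 in the interaction (0% to 6.59%). The medians ran from -0.34 to -0.20 in PS19 vs WT and from -0.40 to -0.23 in P301S Tia1+/- vs WT. The causes were not tested.

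Replicate numbers were not used as pairs, since only 7 of 18 pairs of libraries with the same number deviated together (residual correlation above 0.1, range -0.538 to 0.346). A fit with a replicate block called 0 members in Tia1+/- vs WT and 2 in P301S Tia1+/- vs WT (0.0583% and 0.117% of all genes). Members such as Trib3, with at most 1.87 CPM in any library, were limited by depth.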
